A study of Mus musculus with 16 samples.

Results

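Ribosomal protein genes encode the protein parts of the cytosolic ribosome. Here 82 of them were described in mouse spleen dendritic cells labelled WT or CKO, the latter described as deficient in the transcription factor Etv6. A gene belonged to the set when its name in the authors' count table began with Rpl or Rps and a digit, or was Rplp0, Rplp1, Rplp2 or Rpsa. Of 103 names that matched, 10 kinase genes of the Rps6k family, 5 rows with -ps in the name and 6 genes under 10 CPM (counts of the gene per 1000000 counts of the library) in mean over all libraries were left out, which kept 82 of 24116 rows. By role, 31 members encode small subunit proteins, 42 large subunit proteins and 3 the stalk proteins, and 3 are paralogs (Rpl7l1, Rpl22l1 and Rps27l). The remaining 3 matched by name and are in none of these classes: Rpl32l, Rpl37rt and Rps19bp1, the last a binding partner of Rps19 and not a part of the ribosome. Rpl32l carries the Ensembl ID of Rpl32, and whether reads of Rpl32l and Rpl37rt come from Rpl32 and Rpl37 was not tested. Of 77 core ribosomal proteins 76 were members, and Rpl26 fell out with a mean of 0.0357 CPM. The members just inside the limit were Rpl36a with 10.9 CPM and Rps12 with 12.2 CPM, and the matching genes just outside it were Rps4l with 5.83 CPM and Rpl3l with 1.42 CPM.

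The ribosome joins a small subunit, which reads the mRNA, to a large subunit, which forms the peptide bond. A stalk on the large subunit recruits translation factors. Cells make the proteins in near equal numbers, their mRNAs start with a run of pyrimidines (the TOP motif) that ties their translation to nutrient signalling through mTOR, and growing or dividing cells commonly hold more of these mRNAs than resting cells.

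The study measured RNA of sorted spleen dendritic cells by low-input sequencing of 16 libraries, with 2 libraries for each of 8 groups. Each of 4 subsets, labelled Dec205, pDC, Esamlo and Esamhi, was taken from mice labelled WT and from mice labelled CKO, which the series describes as Etv6-deficient. Plasmacytoid dendritic cells (pDC) are known as interferon producers, Dec205 is a surface receptor found on cross-presenting cDC1, and ESAM divides cDC2. Neither the Cre driver, the deleted stretch of Etv6, nor the age of the mice is given in the sources used here. The same holds for whether the pair of libraries in a group stems from different animals, and p-values then cover no more than the spread between these samples, which may be technical.

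Libraries held 14434287 to 20709265 counts. Etv6 itself was lower in Dec205 CKO (205 to 219 CPM) than in Dec205 WT (337 to 375 CPM), with a log2 fold change of -0.75 ± 0.10 (SE; adjusted p = 0.000996, edgeR quasi-likelihood test), while in pDC the 2 genotypes overlapped, at 346 to 352 CPM in WT and 322 to 363 CPM in the libraries labelled CKO. In Esamlo (426 to 512 CPM against 362 to 370 CPM, adjusted p = 0.25) and Esamhi (451 to 492 CPM against 390 to 434 CPM, adjusted p = 0.81) the WT libraries were higher without passing the test. A count over the whole gene does not show whether a part of it was deleted. Most subset markers followed the labels: 6 cDC1 markers summed to 2714 to 3214 CPM in Dec205 and to at most 228 CPM elsewhere, 6 pDC markers summed to 10417 to 11747 CPM in pDC and to at most 197 CPM elsewhere, and Esam was at 131 to 151 CPM in Esamhi against 8.0 to 13.7 CPM in Esamlo. The separation was not complete: 6 cDC2 markers summed to 2209 to 2627 CPM in Esamlo and Esamhi and to 1295 to 1511 CPM in pDC, where Clec4a4 was at 0, with 53.7 to 97.4 CPM in Dec205. Esam was at 32.5 to 33.2 CPM in Dec205 WT and 7.39 to 7.49 CPM in Dec205 CKO, and at 0 in pDC. Xist was at 0 to 1.57 CPM in WT and 105 to 343 CPM in CKO, and Ddx3y at 95.4 to 223 CPM in WT and 0.0555 to 1.93 CPM in CKO, so the sex of the cells and the genotype cannot be told apart.

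The members took a small part of the counts in these libraries. Summed, they held 100580 to 191347 counts, which is 0.585% to 1.07% of a library, and no member was among the 100 most abundant genes. In Esamlo WT the share was 1.07% and 1.01%, the highest of any group. By mean, Dec205 CKO (0.970% and 0.922%) and Esamlo CKO (0.945% and 0.887%) came next and overlapped. Esamhi WT (0.820% and 0.893%) and Dec205 WT (0.871% and 0.819%) followed, also overlapping, and then Esamhi CKO (0.792% and 0.736%). The pDC libraries were the lowest, with 0.615% and 0.643% in WT and 0.585% and 0.726% in CKO, and none of the 4 reached the lowest of the 12 other libraries. The ratio of small subunit to large subunit counts stayed between 0.735 and 0.796 in all 16 libraries. It was lowest in the 4 pDC libraries, at 0.735 to 0.740, with the 12 others at 0.752 to 0.796.

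**Figure D1:**
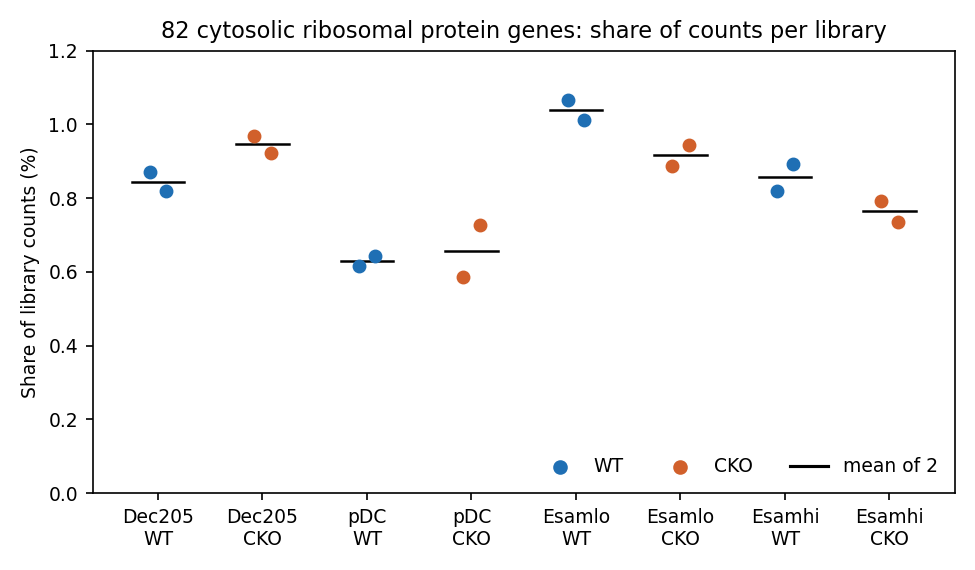
Share of all counts of a library (percent, y axis) held by the 82 ribosomal protein genes, for the 2 libraries of each group (x axis), WT in blue and CKO in orange, with a black line at the mean of 2. The 4 pDC libraries lie between 0.585% and 0.726%, below the 12 others.

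After scaling by the trimmed mean of M values (TMM), the depth behind single members, in CPM not divided by length, was 11.0 CPM for Rpl36a, 65.4 CPM in the median and 641 CPM for Rpl4, a protein of the exit tunnel. Per kilobase of a GENCODE transcript the highest were Rpl32 with 555 CPM and Rps9 with 538 CPM, and the lowest were Rps15a with 7.73 CPM, Rps19bp1 with 15.0 CPM and Rpl12 with 15.7 CPM. The length taken for Rps15a is that of a 5179-base transcript. Of 81 members matched to a GENCODE transcript, 79 shared at least 1 stretch of 50 bases with an annotated pseudogene, with a median of 8 pseudogenes and up to 120 for Rpl7a, and in 43 fewer than 50% of the 50-base stretches were unique among annotated transcripts. Over the 81 genes of these same libraries the mean level had a Spearman correlation of 0.23 with the percent of unique stretches, 0.31 with the number of unique stretches inside an exon and -0.30 with the number of pseudogenes, given here as a description. How the authors counted reads that match several places is not given in the sources used here, and the part of this in the levels was not tested. Each gene was therefore compared with itself across libraries.

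Promoter sequence is a feature that the choice of the members did not use. RefSeq windows (GRCm38.p6) from 250 bases before to 50 bases after the start were matched for 62 members. The letters CCGGAAG, the core bound by factors of the ETS family to which Etv6 belongs, stood on either strand in 23 of the 62 windows (37.1%), against 17.7% of the windows of tested genes and 9.12% of all 27025 windows. The letters CTTTCC, a pyrimidine run, stood in 45.2% of member windows and 26.4% of those of tested genes, GGGCGG, the Sp1 core, in 61.3% and 62.0%, and TATAAA, the TATA box, in 11.3% and 7.55%. None of these 4 motifs is contained in another, and a match shows the letters only, not that a factor binds. The windows printed here, from 40 bases before to 20 bases after the start in GRCm38.p6, are those of the members that stand out in the comparisons and of 3 more with the ETS core, and capitals mark that core or its reverse complement CTTCCGG.
Rps19 (chr7:24884552-24884611, plus strand): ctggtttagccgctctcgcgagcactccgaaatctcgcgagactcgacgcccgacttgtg
Rpl31 (chr1:39367811-39367870, plus strand): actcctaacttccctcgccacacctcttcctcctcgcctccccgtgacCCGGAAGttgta
Rps27l (chr9:66946046-66946105, plus strand): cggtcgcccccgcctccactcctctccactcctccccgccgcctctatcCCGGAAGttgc
Rps27 (chr3:90213629-90213688, minus strand): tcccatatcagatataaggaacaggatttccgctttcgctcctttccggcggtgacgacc
Rpl6 (chr5:121204461-121204520, plus strand): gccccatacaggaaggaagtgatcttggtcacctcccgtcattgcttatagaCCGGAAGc
Rps3a1 (chr3:86142649-86142708, minus strand): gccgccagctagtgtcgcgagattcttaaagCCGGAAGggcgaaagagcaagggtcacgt
Rps7 (chr12:28635934-28635993, minus strand): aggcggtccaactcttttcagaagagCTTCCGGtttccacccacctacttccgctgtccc
With the start base as 1, the core began at base 9 in Rpl31, 10 in Rps27l, 13 in Rpl6, -9 in Rps3a1 and -14 in Rps7. Rps19 and Rps27 held no CCGGAAG in the full window.

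The members rose and fell together. Over the 16 libraries, 59 of 82 had a correlation above 0.9 with the median profile of the other members, the median correlation was 0.94, and 5 members were under 0.5. Those 5 were Rpl31 with -0.73, Rps19bp1 with -0.22, Rpl10 with 0.04, Rpl7l1 with 0.22 and Rps27l with 0.46. These correlations describe points that share libraries and scaling factors.

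**Figure D2:**
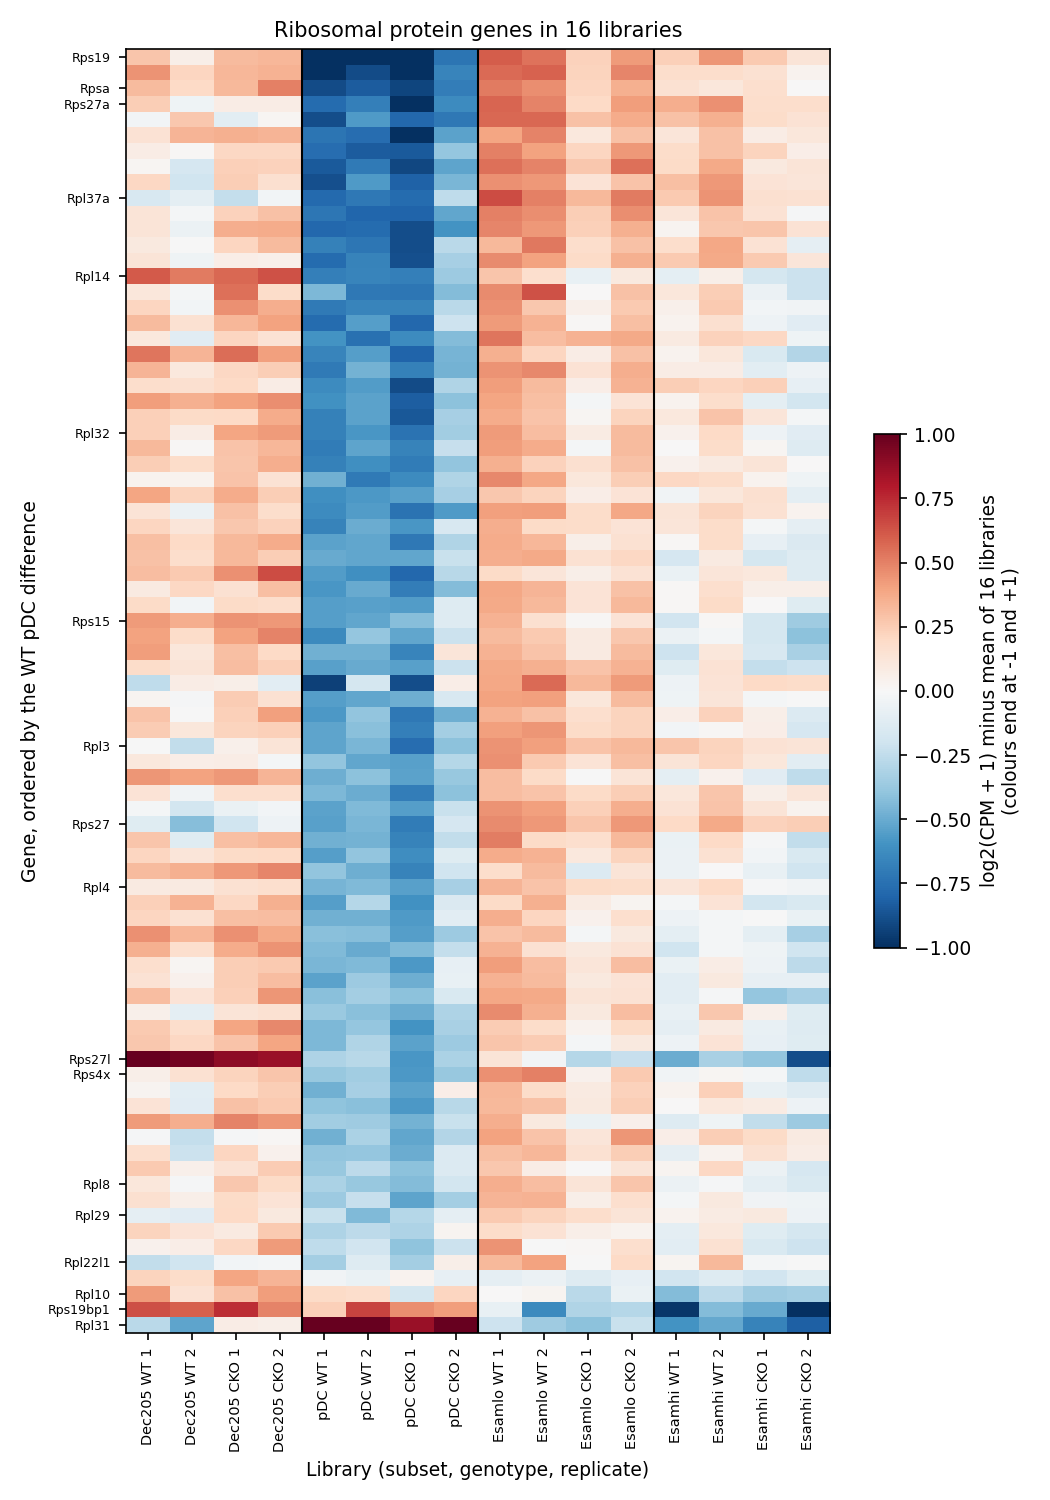
Each row is 1 of 82 ribosomal protein genes and each column 1 of 16 libraries. Colour gives log2(CPM + 1) minus the gene's mean, with colours ending at -1 and +1, and rows follow the WT pDC difference from lowest to highest, with names beside some of the genes described. The pDC columns are blue for most rows, and Rpl31 and Rps19bp1 at the foot are red there.

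Among the 3 comparisons of subsets, that of pDC with the others moved the most members. In WT libraries 75 of 82 members were lower and 2 higher in pDC than in the mean of Dec205, Esamlo and Esamhi (edgeR quasi-likelihood test, adjusted p under 0.05 over 13790 genes), where 26.7% of all tested genes were lower and 25.4% higher. The median log2 fold change over the members was -0.71, a 1.63-fold lower level, and over all tested genes -0.01. Both subunits shared it: 30 of 31 small subunit members were lower (median -0.73), 42 of 45 large subunit and stalk members were lower with 1 higher (median -0.70), and the 3 stalk proteins were all lower (median -0.84). All 4 pDC libraries of both genotypes lay below all 12 others for 57 members, against 14.1% of tested genes, and above them for 1, Rpl31, against 14.8%.

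Among small subunit proteins Rps19, which is mutated in Diamond-Blackfan anaemia, had the lowest value. Rps19 (chr7:24884592-24889811) was at 53.2 and 54.4 CPM in WT pDC and 52.7 and 66.3 CPM in CKO pDC. In WT it was at 134.9 and 115.7 CPM in Dec205, 168.8 and 161.8 CPM in Esamlo, and 131.2 and 150.7 CPM in Esamhi. In CKO it was at 138.0 and 139.8 CPM, 130.4 and 149.3 CPM, and 133.1 and 121.2 CPM in the same order of subsets. No pDC library came near the others, and in WT the fitted difference on the log2 scale was -1.41 ± 0.11 (SE; adjusted p = 3.4e-07). Rps29, a zinc-binding protein of the small subunit, was at 32.5 and 35.9 CPM in WT pDC and 76.5 to 102.4 CPM in the other WT libraries (-1.35 ± 0.14, adjusted p = 3.9e-06). Rpsa, also known as the laminin receptor, was at 60.8 and 63.8 CPM in WT pDC and 123.6 to 163.8 CPM in the other WT libraries (-1.17 ± 0.10, adjusted p = 4.1e-07). Rps27a, which is made as a fusion with ubiquitin, was at 27.1 and 29.0 CPM in WT pDC and 45.6 to 70.8 CPM in the other WT libraries (-1.11 ± 0.15, adjusted p = 3.3e-05). For none of these 3 did a WT pDC library overlap another WT library.

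The members with the smallest called decreases belong to the large subunit. Rpl13a, known also for a role in silencing of inflammatory mRNAs, was at 145.6 and 150.3 CPM in WT pDC and 168.1 to 210.9 CPM in the other WT libraries (-0.40 ± 0.10, adjusted p = 0.0034). Rpl29 was at 22.4 and 19.1 CPM in WT pDC and 24.3 to 31.8 CPM in the others (-0.41 ± 0.13, adjusted p = 0.015), and without the library pDC WT 2 its adjusted p was 0.17. The 5 members that did not pass were Rps12 (-0.71, adjusted p = 0.060), Rpl12 (-0.35, 0.098), Rpl22l1 (-0.35, 0.053), Rpl7l1 (-0.04, 0.66) and Rpl10 (+0.20, 0.17).

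Rpl31, a large subunit protein that lies at the exit of the nascent chain tunnel, went the other way. It was at 46.6 and 48.6 CPM in WT pDC and 38.8 and 52.7 CPM in CKO pDC. Dec205 had 17.2 and 14.2 CPM in WT and 22.0 and 21.8 CPM in CKO, and the 8 Esamlo and Esamhi libraries had 11.4 to 18.0 CPM. All 4 pDC libraries were above the other 12, and in WT the difference was +1.62 ± 0.14 on the log2 scale (SE; adjusted p = 5.6e-07). The row for the pseudogene Rpl31-ps12, chosen after its values were seen, had 34.6 and 34.9 CPM in WT pDC and 11.7 to 16.4 CPM in the other WT libraries, and reads of the 2 rows may not be separable, since only 30.0% of the 50-base stretches of the Rpl31 transcript are unique. Rpl31 (chr1:39367851-39371911 in GRCm38.p6) overlaps Tbc1d8 by 417 bases, and whether counting used strand is not given in the sources used here. Tbc1d8 was at 693 and 660 CPM in Dec205 WT and 620 and 688 CPM in pDC WT, and the part of its reads in the Rpl31 values was not tested.

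The other member called higher was Rps19bp1, at 13.8 and 19.0 CPM in WT pDC, 18.5 and 17.9 CPM in Dec205 WT, 10.9 and 7.0 CPM in Esamlo WT and 5.4 and 8.2 CPM in Esamhi WT. Its pDC libraries overlapped those of Dec205, and the call (+0.66 ± 0.24, adjusted p = 0.037) was lost without pDC WT 2 (+0.41, adjusted p = 0.35), without Dec205 WT 2 (adjusted p = 0.055), without Esamlo WT 2 (0.076), without Esamhi WT 1 (0.084) and without any 1 of the pDC or Esamlo CKO libraries (0.052 to 0.056). It was also lost with only the libraries of the comparison (0.076) and narrowly without the filter on low counts (0.0504).

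**Figure D3:**
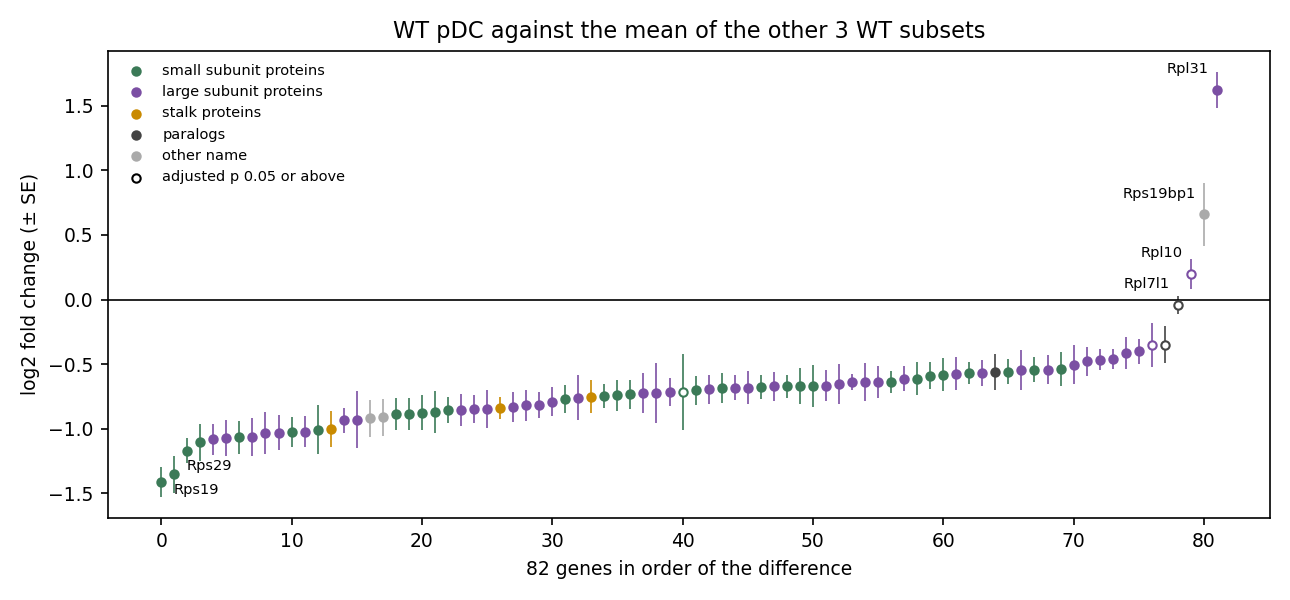
Log2 fold change (y axis, bars ± SE) of WT pDC against the mean of the other 3 WT subsets for the 82 genes in rank order (x axis), coloured by role, with open points for adjusted p of 0.05 or above. The points run from Rps19 at -1.41 to Rpl31 at +1.62, and 75 called points lie under 0.

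With library sizes set to the summed member counts, which removes what the members share, 14 members were lower and 9 higher in WT pDC relative to the family, as were 13.9% and 52.8% of all tested genes. This scaling raises the median over all tested genes to +0.69. Rps19 (-0.71), Rps29 (-0.66), Rpsa (-0.47) and Rps27a (-0.41) were among the lower ones. They had been named for the lowest values in these same libraries, so their place after this centring follows from that choice and adds no support. Rpl31 (+2.32), Rps19bp1 (+1.36), Rpl10 (+0.90) and Rpl7l1 (+0.66) led the higher ones.

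The CKO libraries, which are separate samples, gave 71 members lower and 2 higher in pDC against the other subsets (median -0.57), where 24.7% of all tested genes were lower and 23.9% higher. The 2 higher ones were again Rpl31 (+1.48) and Rps19bp1 (+0.65). Over the 82 members the WT and CKO differences correlated with r = 0.95, beside 0.84 over all tested genes, and all 82 had the same sign.

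Other genes of translation moved in part with the members, in the comparison where 26.7% of all tested genes were lower and 25.4% higher in WT pDC. Among the ribosomal proteins outside the name rule, Fau, which is made as a fusion with a ubiquitin-like protein, was at 53.0 and 58.7 CPM in WT pDC and 88.1 to 112.7 CPM in the other WT libraries (-0.85 ± 0.12, adjusted p = 8.5e-05). Rack1, a scaffold protein on the small subunit, was at 144.9 and 139.9 CPM in WT pDC and 172.9 to 242.9 CPM in the other WT libraries (-0.57 ± 0.10, adjusted p = 0.00044). Of 17 translation factors and other mRNAs of the TOP class, 13 were lower and 0 higher (median -0.41), such as Eef1b2 (-1.20), an exchange factor for elongation factor 1, and Pabpc1 (-1.14), the poly(A) binding protein. Mitochondrial ribosomal proteins did not share it, with 5 of 76 lower and 17 higher (median +0.16), and neither did 24 ribosome assembly genes, with 4 lower and 5 higher (median +0.02). In both lists the part that was higher lay near the share over all tested genes. Among 17 tested regulators 4 were lower and 5 higher, so the list went both ways, near the shares over all tested genes. Myc, a driver of ribosome production, was at 8.5 and 11.5 CPM in WT pDC and 26.5 to 60.9 CPM in the other WT libraries (-2.16), and its part was not tested. These lists were chosen with results of these data known.

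Markers of dividing cells moved with the members in pDC but not between the ESAM subsets. Every member had a lower value in Esamhi WT than in Esamlo WT, while the markers summed to 922 to 946 CPM in Esamhi WT and 738 to 806 CPM in Esamlo WT. All 10 markers were lower in WT pDC (median -4.73), and they summed to 26.1 to 33.8 CPM there against 480 to 946 CPM in the other WT libraries. In the libraries labelled pDC CKO they summed to 101 to 117 CPM, and 7 of 10 were higher than in WT pDC, while the member share overlapped between those genotypes. Of 5 plasma cell markers 4 were higher in WT pDC, with a sum of 1383 to 1630 CPM against 77.8 to 259 CPM, and 5 of 7 macrophage markers were lower. The 6 monocyte markers summed to 3350 to 3396 CPM in WT pDC and 348 to 906 CPM in the other WT libraries, with 3 of 6 higher and 2 lower, while F13a1 was at 0 in WT pDC and in Dec205 WT. Their part in the result was not tested, and in these bulk samples a change in the mix of cells and a change of RNA per cell cannot be told apart.

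In WT, Dec205 cells differed from Esamlo and Esamhi in both directions, with 17 members called. Of these, 9 were higher and 8 lower (20.2% and 20.8% of all tested genes), and the median log2 fold change over the 82 members was -0.08. Scaling by library size alone gave 5 higher and 24 lower, since it moved the median over all tested genes to -0.16 in this comparison (and to +0.16 in that of pDC). Without Dec205 WT 2, 11 members were called in place of 17.

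Rps27l, a paralog of Rps27 that p53 induces, had the largest difference. It was at 152.7 and 122.1 CPM in Dec205 WT and 116.2 and 113.5 CPM in Dec205 CKO. The 4 pDC libraries had 41.1 to 50.9 CPM, and the 8 Esamlo and Esamhi libraries had 33.0 to 67.8 CPM. All Dec205 libraries stood above the others, with +1.33 ± 0.14 (SE; adjusted p = 7.6e-06) in WT. Its parent Rps27 ran opposite, with 66.1 and 53.2 CPM in Dec205 WT and 82.9 to 100.1 CPM in Esamlo and Esamhi WT (-0.65 ± 0.15, adjusted p = 0.0034).

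Rps19bp1 was also higher in Dec205 WT (+1.22 ± 0.26, adjusted p = 0.0023). Rpl14, a large subunit protein, was at 226.8 and 212.6 CPM in Dec205 WT and 138.3 to 179.9 CPM in Esamlo and Esamhi WT (+0.46 ± 0.10, adjusted p = 0.0018). Rpl10, which the X chromosome encodes and which takes part in joining the subunits, was at 100.6 and 82.8 CPM against 55.0 to 76.2 CPM (+0.46 ± 0.12, adjusted p = 0.0091), and its adjusted p was 0.14 without Dec205 WT 1. Rpl7l1, Rps2, Rpl10a and Rps15 were also higher, with +0.31 to +0.33.

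Lower in Dec205 WT beside Rps27 were Rpl37a (67.9 and 70.9 CPM against 91.0 to 119.9 CPM, -0.60 ± 0.14, adjusted p = 0.0039), the paralog Rpl22l1 (-0.51 ± 0.15, 0.016) and Rpl39, a small protein of the exit tunnel (-0.49 ± 0.15, 0.018). Rpl22l1 and Rpl39 each lost the call when Dec205 WT 2 or Esamhi WT 2 was left out (adjusted p = 0.055 to 0.13), and Rpl22l1 also without Dec205 WT 1 (0.066). The remaining 4 were Rpl3, Rps9, Rps13 and Rpl22, with -0.32 to -0.46. In CKO libraries 21 members were higher and 2 lower in Dec205 (20.1% and 21.4% of tested genes), with 66 of 82 members positive and a median of +0.20 beside -0.03 over all tested genes, and the 2 lower ones were again Rps27 and Rpl37a (both -0.43). The WT and CKO differences correlated over the 82 members with r = 0.92, beside 0.61 over all tested genes, and 44 members had the same sign. In all 4 Dec205 libraries 7 of 82 members, among them Rpl14, Rplp1, Rpl7l1, Rps2, Rps15 and Rps27l, were above all 12 others, where 8.97% of tested genes did so, a share near the background.

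Mitochondrial ribosomal proteins were higher in Dec205 WT than in the ESAM subsets for 34 of 76 and lower for 0 (median +0.42), where 20.2% of all tested genes were higher and 20.8% lower, and ribosome assembly genes for 10 of 24 and lower for 0 (median +0.31). Their cytosolic counterparts had a median of -0.08 in the same comparison.

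The 2 ESAM subsets were close. In WT 2 members were lower in Esamhi than in Esamlo and 0 higher, where 3.09% of tested genes were lower and 2.72% higher. Every member had a negative value, with a median of -0.25 (1.19-fold lower) beside 0.00 over all tested genes, and relative to the family no member was called, against 6.72% of tested genes. Rps4x, an X-linked small subunit protein, was at 132.3 and 136.6 CPM in Esamlo WT and 93.6 and 97.2 CPM in Esamhi WT (-0.49 ± 0.11, adjusted p = 0.024). Rpl8, which lies at the peptidyl transferase centre, was at 298.6 and 288.1 CPM in Esamlo WT and 222.9 and 230.4 CPM in Esamhi WT (-0.37 ± 0.10, adjusted p = 0.040). The number called ranged from 0 to 3 when 1 library was left out, with 0 after any 1 of the 4 libraries compared, and was 6 with DESeq2. Rpl8 lost the call with RLE scaling (adjusted p = 0.053) and without the filter on low counts (0.051). Among CKO libraries 1 member, Rpl35, was called lower (-0.55), with a median over the members of -0.22, where 1.49% of tested genes were lower and 1.53% higher.

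**Figure D4:**
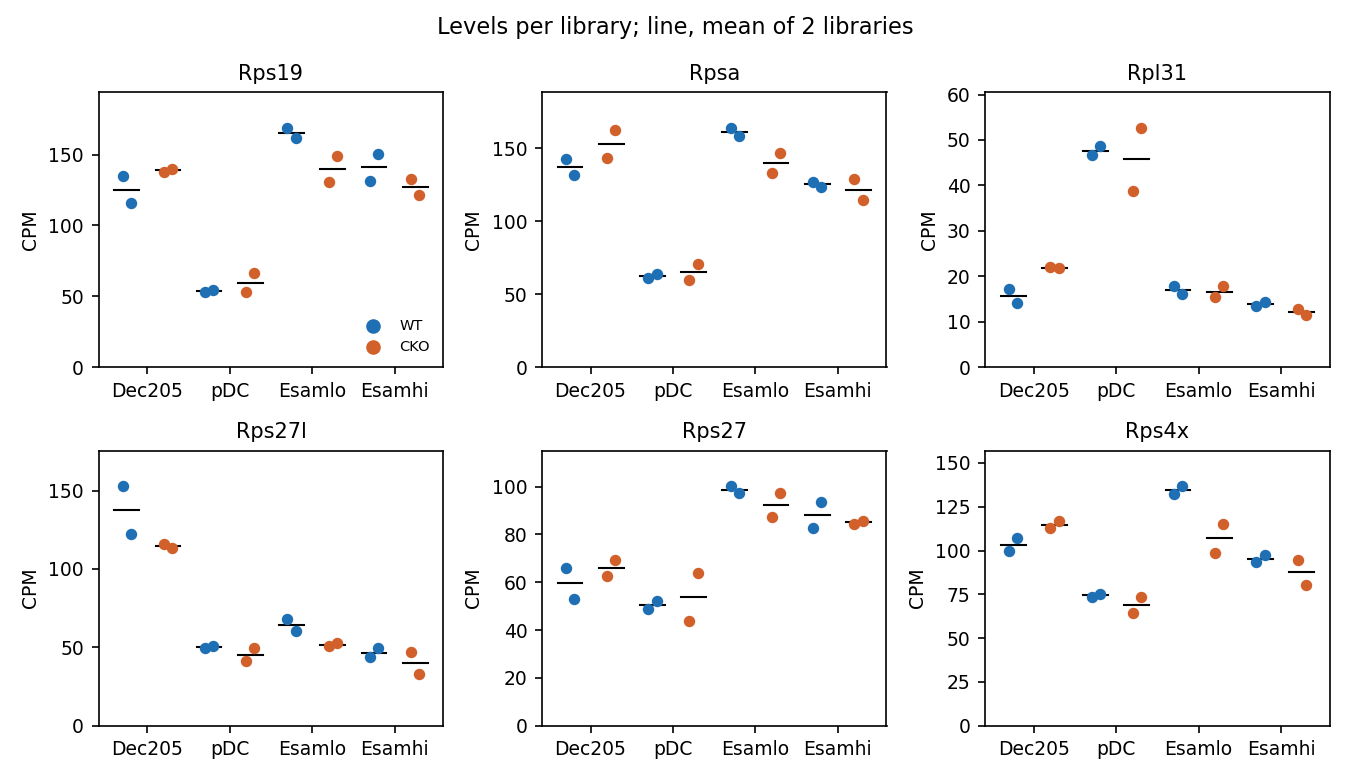
CPM per library (y axis, from 0) of 6 named members by subset (x axis), WT in blue and CKO in orange, with a black line at the mean of 2. Rps19 and Rpsa are lowest in pDC, Rpl31 is highest in pDC, Rps27l is highest in Dec205 while Rps27 is higher in Esamlo and Esamhi, and Rps4x in WT is higher in Esamlo than in Esamhi.

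No member was called between CKO and WT in any subset. With edgeR's quasi-likelihood test 0 of 82 passed in Dec205 (6.78% of all tested genes did), in pDC (1.85%), in Esamlo (0.551%), in Esamhi (0.877%), in the mean over the 4 subsets (5.82%) and in the joint test that the CKO effect differs between subsets (2.44%), and DESeq2 also gave 0 in each. At an unadjusted p under 0.05 there were 4 members in Dec205, 0 in pDC, 4 in Esamlo, 1 in Esamhi, 3 in the mean and 0 in the joint test, or 4.88%, 0%, 4.88%, 1.22%, 3.66% and 0% of the members beside 22.7%, 10.7%, 7.9%, 7.48%, 18.4% and 13.3% of all tested genes. The smallest adjusted p over the members was 0.15 in Dec205, 0.51 in pDC, 0.41 in Esamlo, 0.54 in Esamhi, 0.14 in the mean and 0.42 in the joint test. No member had its 8 CKO libraries all on 1 side of its 8 WT libraries. The share of all tested genes that did so is not given here, so this count has no background beside it.

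The small differences leaned 1 way within a subset. In Dec205 72 of 82 members had a positive value (median +0.12, a 1.09-fold higher level), and for 45 both CKO libraries were above both WT libraries, against 20.1% of tested genes. In Esamlo 81 of 82 were negative (median -0.16, 1.12-fold lower), with both CKO libraries below both WT libraries for 58 against 21.1% of tested genes, and in Esamhi 78 were negative (median -0.15, 1.11-fold lower), with 43 below against 21.8%. In pDC 57 were positive (median +0.07), with 4 above and 2 below without overlap, against 20.6% and 16.7%. The medians moved when single libraries were left out. That of pDC changed sign, at -0.12 without pDC CKO 2 and +0.24 without pDC CKO 1. That of Dec205 was +0.05 without Dec205 WT 2 and +0.19 without Dec205 WT 1. In Esamlo it was -0.10 without CKO 1 and -0.25 without CKO 2, and in Esamhi -0.07 without WT 2, -0.09 without CKO 2 and -0.23 without WT 1. The medians with every library included are about the size of the replicate spread or under it, since the median member level had a pooled SD of 0.12 on the log2 scale between replicates, and members are not replicates of a genotype.

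In Dec205 the members with the smallest p were Rpl31, Rpl23a and Rps3a1. Rpl31 had 17.2 and 14.2 CPM in the WT and 22.0 and 21.8 CPM in the CKO libraries (+0.48 ± 0.19, adjusted p = 0.15). Rpl23a, at the tunnel exit, had 48.5 and 42.3 CPM in the WT libraries and 57.3 and 57.5 CPM in the CKO libraries (+0.34 ± 0.14, adjusted p = 0.17). The third, Rps3a1, had 213.0 and 178.8 CPM in the WT and 237.6 and 233.0 CPM in the CKO libraries (+0.26 ± 0.11, adjusted p = 0.19). For all 3 the CKO libraries lay above the WT libraries without passing the test.

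In Esamlo the values with the smallest p were negative. Among them, Rps4x had 132.3 and 136.6 CPM in the WT and 98.8 and 115.4 CPM in the CKO libraries (-0.33 ± 0.11, adjusted p = 0.41). Those in Esamhi included Rpl4 (WT 686.0 and 721.7 CPM, CKO 625.2 and 615.8 CPM, difference -0.18 ± 0.07, adjusted p = 0.54) and Rps26 (-0.30 ± 0.14, 0.68). In pDC they were Rps15 (WT 46.5 and 47.7 CPM, libraries labelled CKO 50.9 and 62.6 CPM, difference +0.27 ± 0.13, adjusted p = 0.51), Rps24 (+0.23 ± 0.13, 0.61) and Rpl18 (+0.22 ± 0.13, 0.63), and CKO replicate 2 was the higher one of its pair in each of these 3.

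In the mean over subsets Rps27l (-0.24 ± 0.08, adjusted p = 0.14) and Rpl22 (-0.15 ± 0.07, 0.25) were among those with the smallest p. Without Esamhi CKO 1 the adjusted p of Rps27l was 0.048, and without pDC CKO 2 the number of members called was also 1. Of the X-linked members Rps4x, Rpl10, Rpl39 and Rpl36a none was called in any genotype comparison. Members with CCGGAAG and members without it had like medians, +0.11 and +0.12 in Dec205, -0.15 and -0.16 in Esamlo, -0.18 and -0.14 in Esamhi and +0.06 and +0.09 in pDC.

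**Figure D5:**
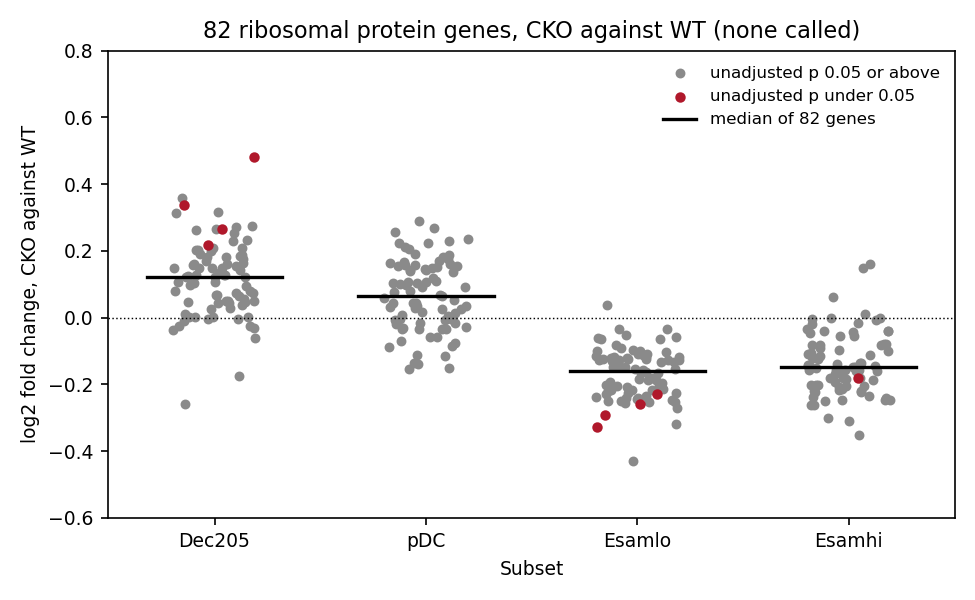
Log2 fold change of CKO against WT (y axis) for the 82 genes in each subset (x axis), with a black line at the median and red for unadjusted p under 0.05. Medians are +0.12, +0.07, -0.16 and -0.15 from Dec205 to Esamhi, and no gene passed the adjusted threshold.

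Markers of other cells moved in some of these comparisons. The 10 B cell markers summed to 137 to 165 CPM in Dec205 WT and 363 to 649 CPM in Dec205 CKO, where 3 of 10 were called higher, and to 212 to 293 CPM in Esamlo WT and 321 to 779 CPM in Esamlo CKO, where none was. The members leaned up in the first and down in the second. In Dec205 the 6 monocyte markers summed to 348 to 388 CPM in WT and 1933 to 2217 CPM in CKO, with 4 called higher. The 5 plasma cell markers there summed to 77.8 to 120 CPM and 173 to 231 CPM, with 2 called higher and Tnfrsf17 at 0 in both genotypes, and the 7 macrophage markers to 177 to 192 CPM and 117 to 121 CPM, with none called. Monocyte markers also summed higher in CKO in Esamlo (794 to 906 CPM against 1051 to 1101 CPM) and Esamhi (441 to 537 CPM against 744 to 810 CPM), with 1 of 6 called in each. The 5 tested neutrophil markers, none called, summed to 13.5 to 22.0 CPM in Esamlo WT and 40.4 to 41.4 CPM in Esamlo CKO, and to 6.8 to 7.5 CPM and 35.5 to 42.3 CPM in Esamhi. Markers of dividing cells summed to 922 to 946 CPM in Esamhi WT and 630 to 668 CPM in Esamhi CKO, and to 738 to 806 CPM and 605 to 684 CPM in Esamlo, with none called. Their part in the member values was not tested.

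Paralogs and their parents were not expressed alike across subsets. Rpl7l1 was at 98.6 to 148.6 CPM in all 16 libraries with its highest values in Dec205 CKO (148.6 and 143.2 CPM), and Rpl7, its parent, was 112 ± 7.44 CPM in pDC WT and 175 ± 1.02 CPM in Esamlo WT (SD, n = 2). Rpl22l1 was 28.1 ± 3.06 CPM in pDC WT beside 34.0 ± 5.54 CPM for Rpl22, and 42.9 ± 1.68 CPM in Esamlo WT beside 84.6 ± 0.23 CPM for Rpl22. Rpl3l, a paralog known from muscle that missed the membership limit, was 5.49 ± 0.01 CPM in pDC WT and 4.45 ± 0.83 CPM in pDC CKO, while in the 6 other groups its mean was at most 0.29 CPM, where 3 counts of a library correspond to 0.145 to 0.208 CPM. Rps4l, which also missed it, was 8.46 ± 0.11 CPM in pDC WT and 17.3 ± 0.70 CPM in pDC CKO, and 1.56 to 5.05 CPM in mean elsewhere.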

How the data were processed

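RNA of sorted spleen dendritic cells was measured in 16 libraries, and the authors deposited 1 table of raw read counts per gene for the series. Per the submitters' processing notes, bcl2fastq, Trimmomatic 0.36, Bowtie2 2.2.9 and the mm10 build were used. Neither the counting tool nor its handling of multiply mapping reads or strand is given in the sources used here, and each can change the level of genes with many pseudogenes. Counts were filtered with filterByExpr (13790 genes kept, all 82 members among them), scaled by TMM and fitted with 1 coefficient per group in edgeR 4.0.16 (R 4.3.3; quasi-likelihood, robust, 8 residual degrees of freedom). P-values were adjusted over all tested genes after Benjamini and Hochberg, and a call is an adjusted p under 0.05. CPM values are scaled by TMM unless a share of the library is given, and the procedure was tested on simulated counts. Libraries held 14434287 to 20709265 counts, and with 2 libraries a group their number limits the precision.

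A second fit used the summed member counts as library sizes. Alternatives were other scalings, DESeq2 1.42.0, no filter, a replicate block, each library left out and narrower memberships. Transcripts came from GENCODE M21 and promoters from RefSeq GRCm38.p6. The members and lists were chosen with earlier results of these data known. Genes were named by rule: the extreme called members of a comparison, or the 3 with the smallest p where fewer than 3 were called, then X-linked members, paralogs and the extremes of level per length. Results on some genes that this rule names are not reported here.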

Additional observations from a re-analysis of the deposited data

Results flagged for a closer look

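A signal appeared in rows outside the comparisons: the 5 rows with -ps in the name summed to 209 CPM in the lowest library and 394 CPM in the highest, above the 0.145 to 0.208 CPM that 3 counts make. Rpl14-ps1 held most of it, with a mean of 205 CPM, and was at 122.8 and 128.3 CPM in WT pDC and 282.8 to 287.7 CPM in Dec205 WT. Against the mean of the other 3 WT subsets that row was also lower in WT pDC (-0.91 on the log2 scale). Whether its reads come from Rpl14 was not tested.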

How the results depend on the processing

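Whether replicate numbers pair the samples is not given in the sources used here. Over all genes, deviations of same-numbered libraries correlated by 0.0072 to 0.116 between groups of the same genotype, all positive. Between groups of different genotype the correlations were -0.069 to 0.041. These small values do not settle the pairing, and a block for the replicate number was fitted as an alternative. With this replicate block 77 members were lower and 2 higher in WT pDC, 8 lower and 9 higher in WT Dec205, 2 lower in Esamhi WT, and 0 were called in each genotype comparison, and with the replicate block within genotype the pDC call of Rps19bp1 was lost (adjusted p = 0.051). Counts of genotype calls stayed at 0 under every scaling, DESeq2, no filter and the libraries of the comparison alone, and with each library left out they stayed at 0 in each subset and in the joint test and were 0 to 1 in the mean.

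Scaled to summed member counts, which centres the members by construction, the member medians were -0.0014 in Esamlo and -0.020 in Esamhi for genotype, -0.011 for WT pDC and -0.0072 for Esamhi against Esamlo, and 23 members were called in WT pDC and 0 in Esamhi. There Rpl13a (+0.30) and Rpl29 (+0.29) reversed in WT pDC. Scaling by library size alone gave a WT pDC median of -0.54, 29 calls in WT Dec205 and 4 in Esamhi. Calls in Esamhi WT were 1 with RLE scaling, no filter, without X-linked and Y-linked members or in CKO libraries, and 6 with DESeq2 or with only the libraries of the comparison. A membership floor of 100 CPM left 23 members, of which 22 were called in WT pDC, 5 in WT Dec205 and 1 in Esamhi. CKO libraries in place of WT, chosen after seeing the data, gave medians of -0.57 in pDC and +0.20 in Dec205.

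Over the libraries left out in turn, the calls ranged from 74 to 78 in WT pDC, 11 to 20 in WT Dec205 and 0 to 3 in Esamhi, and the genotype median in pDC from -0.12 to +0.24. Rpl18 in pDC, not called, ranged from -0.0049 without pDC CKO 2, a reversal, to +0.41.

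The member share with core proteins only was 0.801% in Dec205 WT, 0.899% in Dec205 CKO, 0.597% in pDC WT and 0.998% in Esamlo WT, and without sex-linked members 0.609% in pDC WT. With the floor of 100 CPM it was, from Dec205 to Esamhi with WT before CKO, 0.544%, 0.613%, 0.404%, 0.421%, 0.662%, 0.586%, 0.549% and 0.493%, and with the 50 most abundant other genes out of the total 1.12%, 1.26%, 0.738%, 0.765%, 1.28%, 1.13%, 1.04% and 0.942%. These follow from the construction of each alternative.

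Limits: each group has 2 libraries, sex coincides with genotype, counting of multiply mapping reads is not given in the sources used here, and the calls on Rps19bp1, Rpl29, Rpl22l1, Rpl39, Rpl10, Rps4x and Rpl8 depended on single libraries.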
